A study of Mus musculus with 15 samples.

Results

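The subject here is how liver transcripts of newborn mice followed the blood glucose of the pup. All 15 libraries of the series were used (15 of 15), since every one has a glucose value in its labels. Each library is the liver of 1 C57BL/6J pup on postnatal day 1, hybridised to 1 Agilent 1-colour expression array. The pups were 5 wild types and 10 littermates (KO) that carried, on the allele inherited from the mother, a deletion of the imprinted microRNA cluster miR-379/miR-410. Food and water were freely available, and the labels name no treatment. The submitters had sorted the KO pups by glucose into 3 called normoglycaemic, which the design text describes as mildly hypoglycaemic, and 7 called hypoglycaemic. Where the deletion begins and ends, and which pups shared a litter, is not stated in the sources used here.

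Glucose ran from 9 to 72 mg/dl, with a median of 44 mg/dl. The 7 hypoglycaemic KO pups were at 9, 12, 14, 16, 26, 29 and 33 mg/dl. The 3 normoglycaemic KO pups were at 44, 44 and 56 mg/dl, and the 5 wild types at 50, 51, 55, 65 and 72 mg/dl. The widest step between neighbouring values, 11 mg/dl, separated the hypoglycaemic KO pups from all others. A relation over all pups therefore mixes glucose with the groups. For that reason each slope is given over all 15 pups, over the 10 KO pups alone, over the 5 wild types alone, and with the mean of each of the 3 groups removed. The 7 pups at or below 33 mg/dl, called the low pups, are the hypoglycaemic KO pups, so their levels beside those of the 8 others also set that group beside the rest and are given as a description.

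At birth the placental supply of glucose ends, and a newborn lives through a fast until milk arrives. Glucagon, adrenaline and glucocorticoids then rise while insulin falls. The liver answers by breaking down glycogen, making glucose from amino acids, lactate and glycerol, and burning fatty acids. Cyclic AMP signalling and the glucocorticoid receptor drive many of these genes, while insulin and glucose drive the making of fat and cholesterol, and growth hormone drives Igf1. In the same days the liver also begins to express the secreted proteins, bile acid enzymes and cytochromes P450 of the adult organ.

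Levels are log2 signal over the 75th percentile of the array, and 27554 genes or single-probe transcripts were measured. The 15 arrays lay on 2 slides, 8 on slide 1 and 7 on slide 2. Defining hepatocyte genes were high throughout: Alb, the main plasma protein, read 9.65 to 10.08, and Afp, its fetal relative, read 9.17 to 9.53. Mirg, the transcript that runs through the deleted cluster, read 0.88 to 1.60 in the wild types and −3.02 to −1.23 in 9 KO libraries. The level was 0.66 in the library labelled hypoglycaemic KO replicate 2 (16 mg/dl), which goes against its label. Pancreatic acinar transcripts stood high in 3 libraries: their mean level was 2.13 in hypoglycaemic KO replicate 3 (12 mg/dl), 5.11 in normoglycaemic KO replicate 2 (56 mg/dl) and 2.01 in wild-type replicate 2 (72 mg/dl), against −3.54 to −0.37 in the others. The acinar level, the 75th percentile, the share of spots above background, the local background and the level of the Y-linked Ddx3y had Pearson correlations with glucose of −0.215 to 0.125 (lowest adjusted permutation p = 0.689 over 6 relations). The sixth relation was that of the first principal component of all genes, which held 23.2% of the variance. It correlated with glucose at r = 0.866 (permutation p = 7e-05, adjusted p = 0.00042) and rho = 0.847 (permutation p = 0.00015, adjusted p = 0.0009), with r = 0.818 without the 2 pups farthest from the median. Over the 10 KO pups r was 0.901 (permutation p = 0.00074), rho 0.875 and r without the 2 farthest pups 0.830. The largest source of variation between these livers thus followed glucose, in the KO pups alone as well.

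Across all pups, 2215 of 27554 genes rose with glucose (8.04%) and 2416 fell (8.77%) at a limma adjusted p under 0.05 with Benjamini-Hochberg adjustment. A slope is the change in log2 level per 10 mg/dl. Of the 4631 genes, 1546 had a fitted change of at least 2-fold between 9 and 72 mg/dl, 794 of them rising and 752 falling, and 364 a change of at least 4-fold. By rank correlation, which assumes no straight line, 1484 genes rose (5.39%) and 1814 fell (6.58%), with rho between −0.958 and 0.942 and a smallest adjusted permutation p of 0.00672. Without the library labelled hypoglycaemic KO replicate 2, 1973 genes rose and 2284 fell. The numbers depended on which single library was left out, and the reason was not tested. Without wild-type replicate 2, the pup with the highest glucose and one of the 3 rich in acinar transcripts, 1314 rose and 1234 fell. They were 1225 and 1303 without hypoglycaemic KO replicate 1, the pup with the lowest glucose. The counts were 1276 and 1510 without hypoglycaemic KO replicate 5, at 14 mg/dl. Without hypoglycaemic KO replicate 3, at 12 mg/dl, they were 1705 and 1938, and without wild-type replicate 5, at 65 mg/dl, 1826 and 2048. Without all 3 acinar-rich libraries 323 of the 27554 genes rose and 265 fell. Fewer genes were thus called at large in these settings. The list counts given below for the same settings stand beside these lower counts over all genes. Within slide 1 and within slide 2 alone limma called 0 genes, with 6341 and 5117 genes at an unadjusted p under 0.05. Whether the acinar RNA had a part in any slope was not tested. Of the 204 genes chosen for naming by the rule given with the methods, 191 were called over all pups. Of these, 129 stayed called whichever 1 library was left out, 54 lost the call without wild-type replicate 2, 17 of them only without it, and 45 were called without the 3 acinar-rich libraries.

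With the group means removed, 0 genes passed limma's threshold (0.0%). The smallest adjusted p was 0.0541, shared by 8 genes; 951 genes were under 0.1, and 4982 had an unadjusted p under 0.05, 2234 of them rising and 2748 falling. The number of called genes was 981 without hypoglycaemic KO replicate 7, 47 without hypoglycaemic KO replicate 1, 12 without hypoglycaemic KO replicate 3 and 1 without hypoglycaemic KO replicate 2. Among the 10 KO pups alone, 1202 genes rose (4.36%) and 1308 fell (4.75%). The wild types are other pups, so their slopes can be set beside those of the KO pups. Of the genes that rose in the KO pups, 1086 of 1202 (90.3%) also sloped up over the 5 wild types, against 42.8% of all genes. Of those that fell, 1243 of 1308 (95.0%) sloped down, against 57.2% of all genes. The shares without wild-type replicate 2 were 1007 of 1198 (84.1%, against 49.3%) and 1153 of 1303 (88.5%, against 50.7%). Genes vary together across pups and are not separate observations, so these shares are a description without a test. By limma the 5 wild types alone gave 0 calls, with 2905 genes at an unadjusted p under 0.05, and the 7 hypoglycaemic KO pups alone gave 0, with 3627. A test of the difference between the KO and the wild-type slope called 1 of 27554 genes by limma, and 1312 at an unadjusted p under 0.05. The plot of wild-type against KO slopes shows both groups of called genes.

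**Figure D1:**
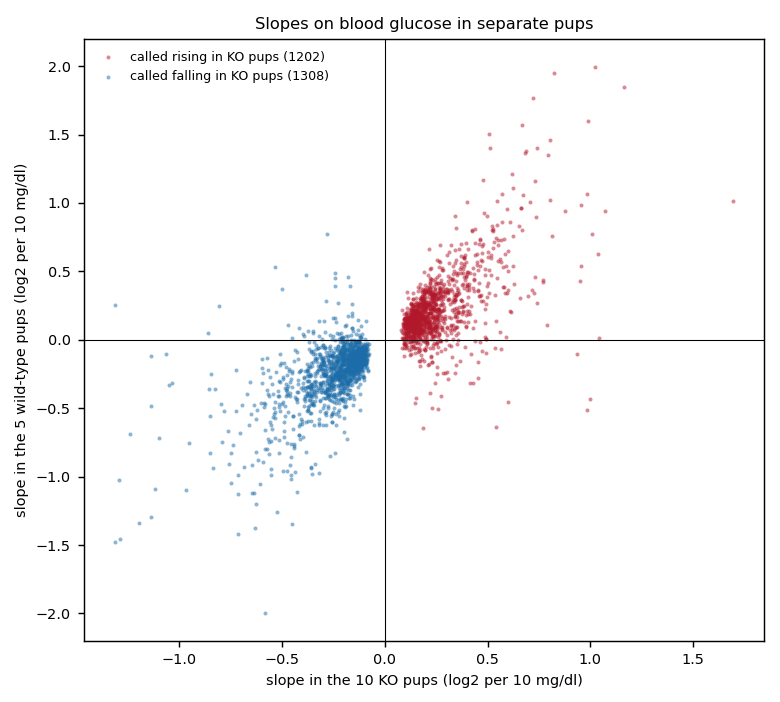
Each point is 1 gene called in the 10 KO pups, with its slope over the KO pups on the x axis and its slope over the 5 wild types on the y axis, both in log2 per 10 mg/dl. Of the 1202 rising genes 1086 lie above 0 on the y axis, and of the 1308 falling genes 1243 lie below it.

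Most members of a list of glucocorticoid-induced genes fell with glucose. Like the other lists, it was chosen with earlier results of these data known, so its counts are a description. Of 26 measured members of this list 20 fell and 0 rose, with a median slope of −0.28 against −0.01 over all genes. The median was −0.48 over the KO pups, where 18 of 26 fell, −0.35 over the wild types and −0.37 with the group means removed. Without the 3 acinar-rich libraries 9 of 26 fell, beside 265 of all 27554 genes. Levels here are those of whole liver, in which fewer cells of a type and less RNA per cell cannot be told apart. Sgk1, a kinase gene named for its response to serum and glucocorticoid, is shown with its promoter because its level followed glucose closely and the promoter holds a glucocorticoid receptor half-site pair. Its array probe lies at chr10:21719507-21719566 (mm9). The sequence is the 250 bases before the start of one Sgk1 transcript in RefSeq, chr10:21993640-21993889 (GRCm38.p6, plus strand), with a match to ACANNNTGT in capitals, 186 bases before the start.
Sgk1 promoter: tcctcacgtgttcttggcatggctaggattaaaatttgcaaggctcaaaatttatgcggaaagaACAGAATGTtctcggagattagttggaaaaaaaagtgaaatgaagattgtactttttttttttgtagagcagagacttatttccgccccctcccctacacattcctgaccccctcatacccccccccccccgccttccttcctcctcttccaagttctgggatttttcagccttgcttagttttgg
The letters ACANNNTGT read alike on both strands. In windows from 250 bases before to 50 after the start, 3 of 22 list members with a sequence had them (Mt1, Sgk1 and Tdo2), as did 6.08% of all 14300 promoters, 6.80% of those of falling genes and 5.85% of those of rising genes. A match describes the letters only.

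Sgk1 read 3.41 to 5.60 (median 4.87) in the 7 pups at or below 33 mg/dl and 2.62 to 3.58 (median 3.12) in the 8 at or above 44 mg/dl. The highest value belonged to the pup at 14 mg/dl and the lowest to the pup at 72 mg/dl, and only the pup at 26 mg/dl overlapped the others. Its slope was −0.40 ± 0.06 (SE, n = 15; limma adjusted p = 0.00273), a fitted 5.66-fold change over the range. It was −0.52 in the KO pups, −0.37 in the wild types, −0.37 within slide 1 and −0.46 within slide 2. Its Pearson r was −0.861 (permutation p = 5e-05), rho −0.836 (permutation p = 0.00027), and r −0.841 without the 2 farthest pups. Ddit4 encodes an inhibitor of the growth kinase mTORC1 and answers to glucocorticoids, hypoxia and amino acid stress. It read 4.10 to 6.82 (median 5.95) in the 7 low pups and 2.47 to 3.77 (median 2.97) in the others, with no overlap. Its slope was −0.68 ± 0.09 (limma adjusted p = 0.00172), 19.5-fold over the range, and −0.72 without the 3 acinar-rich libraries (adjusted p = 0.0346). Angptl4, a secreted inhibitor of lipoprotein lipase induced by fasting, read 6.26 to 7.03 (median 6.72) and 4.79 to 6.19 (median 5.78), again with no overlap. Among the named genes it was one of those closest to a strict order, with rho = −0.926 (adjusted permutation p = 0.00672) and a slope of −0.27 ± 0.04 (limma adjusted p = 0.00251).

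Other falling members of the glucocorticoid list had various functions, fuel use among them. Pdk4, the kinase that shuts pyruvate out of oxidation, had a slope of −0.38 ± 0.07 (limma adjusted p = 0.00521). Pim3, a growth kinase, had −0.46 ± 0.06 (adjusted p = 0.00172), and Tsc22d3, a mediator of glucocorticoid action also known as GILZ, had −0.33 ± 0.06 (adjusted p = 0.00391). Tat, tyrosine aminotransferase and a classic glucocorticoid target of the newborn liver, fell by −0.57 ± 0.13 (adjusted p = 0.0103). Lpin1, a phosphatidate phosphatase and coactivator of fasting genes, had the steepest slope of the list over all pups (−0.83 ± 0.19, adjusted p = 0.0107). Its level was spread widely among the 7 low pups (−0.99 to 4.21, median 3.89) and sat at −1.09 to 0.99 (median −0.82) in the others, so the low pups held both high and low livers. Its slope was −1.31 in the KO pups and 0.25 in the wild types. Fkbp5, the cochaperone used as a readout of the receptor, changed less (−0.12 ± 0.04, adjusted p = 0.0498), and 12 of 15 single libraries ended that call when left out. Igfbp1, a fasting-induced binding protein, was not called over all pups (−0.10 ± 0.04, adjusted p = 0.0721).

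**Figure D2:**
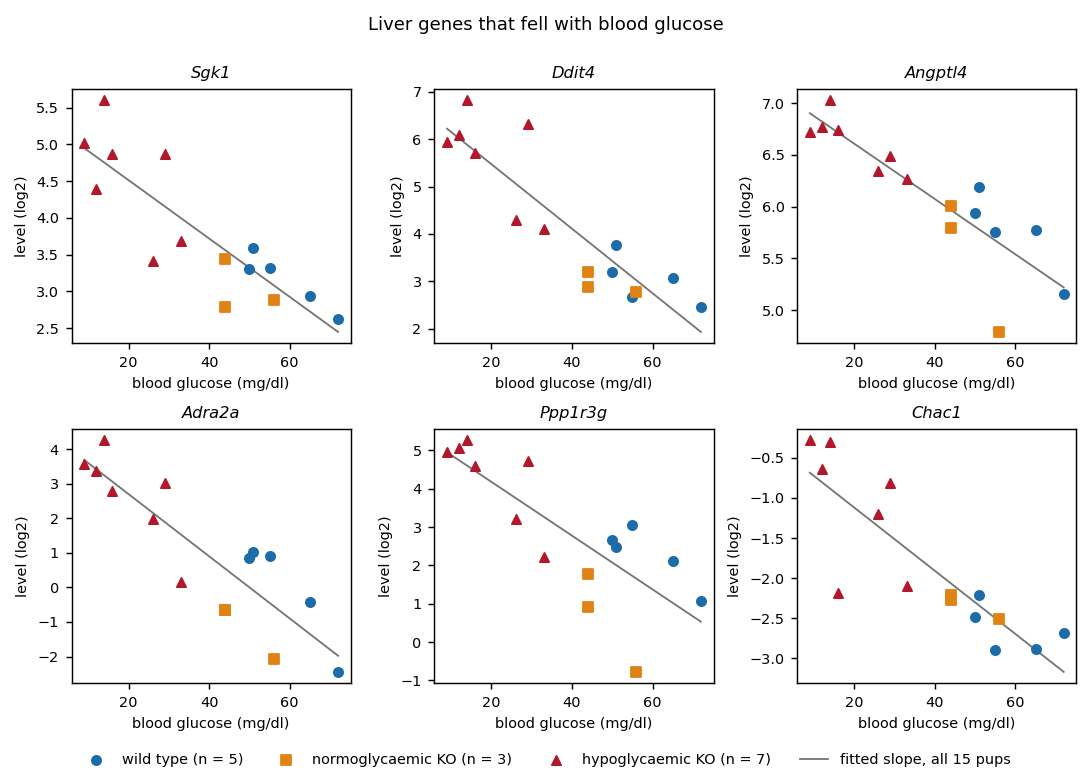
Levels (log2 over the array's 75th percentile, y axis) of Sgk1, Ddit4, Angptl4, Adra2a, Ppp1r3g and Chac1 against blood glucose (mg/dl, x axis), 1 point per pup, with markers for the 3 groups and a line for the limma slope over all 15 pups. Levels decline from left to right in all 6 panels, and in Ddit4, Angptl4 and Chac1 the 7 pups at or below 33 mg/dl lie above all 8 others.

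The steepest falling gene that could be named was Adra2a, the alpha-2A adrenergic receptor, with a probe at chr19:54123363-54123422 (mm9). It read 3.58, 3.37, 4.26, 2.78, 1.98, 3.01 and 0.17 in the 7 low pups in order of glucose. It read −0.66 and −0.66 in the 2 pups at 44 mg/dl, then 0.86, 1.02, 0.90, −2.08, −0.42 and −2.44 up to 72 mg/dl. The low pups at up to 29 mg/dl thus all lay above the others, and the lowest values were those of the pups at 56 and 72 mg/dl, both rich in acinar transcripts. Its slope was −0.90 ± 0.13 (limma adjusted p = 0.00251), 50.9-fold over the range, and −0.77 without the 3 acinar-rich libraries (adjusted p = 0.0442). It was −1.31 in the KO pups, −1.48 in the wild types and −1.26 ± 0.20 with the group means removed (adjusted p = 0.0557). Slc10a6, a carrier of sulphated steroids, had a slope of −0.87 ± 0.16 (adjusted p = 0.00409), Setdb2, a histone methyltransferase that glucocorticoids induce in fasting liver, −0.77 ± 0.14 (adjusted p = 0.00462), and Il1r2, the decoy receptor of interleukin 1, −0.67 ± 0.11 (adjusted p = 0.00361). Phf11c (−0.82), Fibin (−0.70) and Sult1e1, the oestrogen sulphotransferase (−0.76), completed the steepest falling genes with Ddit4 and Lpin1. Sult1e1 lost its call without any 1 of 6 libraries, among them wild-type replicate 2.

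Cyclic AMP and gluconeogenic genes fell in part. Of 16 measured members of the cAMP list 7 fell and 0 rose (median slope −0.17, and −0.30 with the group means removed), and 4 fell without wild-type replicate 2 and 1 without the 3 acinar-rich libraries. Of 18 genes of gluconeogenesis 7 fell and 1 rose (median −0.09), and without the 3 acinar-rich libraries 0 fell. G6pc, glucose-6-phosphatase, which frees glucose from the hepatocyte, read 7.11 to 8.07 (median 7.88) in the low pups and 4.87 to 7.24 (median 6.66) in the others. The lowest level was that of the KO pup at 56 mg/dl. Its slope was −0.31 ± 0.08 (limma adjusted p = 0.0187) and −0.60 in the KO pups (adjusted p = 0.00702), and its call was lost without wild-type replicate 2 (adjusted p = 0.0526). Pck1, the enzyme that commits carbon to glucose, read 7.20 to 8.08 (median 7.86) and 5.93 to 7.76 (median 7.23). It was not called over all pups (−0.15 ± 0.06, adjusted p = 0.0901) but was in the KO pups (−0.37, adjusted p = 0.0125). The difference between its KO and wild-type slopes was not called. Ppargc1a, the fasting coactivator PGC-1alpha, had a slope of −0.36 ± 0.10 (adjusted p = 0.0254), and 4 single libraries, wild-type replicate 2 among them, ended its call. Foxo1, the transcription factor that insulin keeps out of the nucleus, had −0.18 ± 0.04 (adjusted p = 0.00668). Slc37a4, the carrier that feeds glucose-6-phosphatase, had −0.21 ± 0.04 (adjusted p = 0.00683), and Irs2, the insulin receptor substrate of fasting, −0.17 ± 0.05 (adjusted p = 0.041), a call that 8 single libraries ended, wild-type replicate 2 among them. Gpd1, cytosolic glycerol-3-phosphate dehydrogenase, was the member that rose (0.43 ± 0.08, adjusted p = 0.00442).

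Dusp1, a phosphatase that ends MAP kinase signals, stood in the glucocorticoid, the cAMP and the immediate-early list. Its slope was −0.33 ± 0.06 (limma adjusted p = 0.00523), from 0.29 to 2.56 (median 1.56) in the low pups to −0.27 to 0.69 (median 0.14) in the others. Its promoter is shown because it was the only one of 13 sequences from the cAMP list with the full cyclic AMP response element TGACGTCA, which is its own reverse complement. The 250 bases before the start, chr17:26508473-26508722 (GRCm38.p6, minus strand, RefSeq), carry it in capitals, 143 bases before the start.
Dusp1 promoter: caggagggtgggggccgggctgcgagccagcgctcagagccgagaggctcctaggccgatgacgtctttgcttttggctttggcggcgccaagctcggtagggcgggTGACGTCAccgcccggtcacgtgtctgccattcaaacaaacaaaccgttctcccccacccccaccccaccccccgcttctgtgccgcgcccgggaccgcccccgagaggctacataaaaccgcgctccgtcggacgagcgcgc
Over all promoters 3.00% held these letters, as did 3.92% for falling and 2.76% for rising genes. Gadd45b (−0.37 ± 0.07, adjusted p = 0.00401) and the nuclear receptor gene Nr4a1 (−0.20 ± 0.05, adjusted p = 0.0132) were among the other cAMP members that fell.

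The glycogen list was split, with 3 of 17 members rising and 4 falling (median slope 0.00). The falling count was 2 without wild-type replicate 2 and without hypoglycaemic KO replicate 1, and without the 3 acinar-rich libraries 1 rose and 0 fell. Its steepest genes encode 2 targeting subunits that bring protein phosphatase 1 to glycogen, and they moved in opposite directions. Ppp1r3g read 2.21 to 5.26 (median 4.72) in the low pups and −0.78 to 3.06 (median 1.94) in the others, with the lowest level at 56 mg/dl. Its slope was −0.70 ± 0.14 (limma adjusted p = 0.0057), and −0.60 without the 3 acinar-rich libraries (adjusted p = 0.058). Ppp1r3c read −2.32 to −0.29 (median −1.78) and −0.22 to 1.22 (median 0.66), with no overlap. Its slope was 0.56 ± 0.07 (adjusted p = 0.00177), and 0.61 without those libraries (adjusted p = 0.0312). Pygl, liver glycogen phosphorylase, rose slightly (0.11 ± 0.02, adjusted p = 0.00643), while Gys2, liver glycogen synthase, was not called (0.08 ± 0.04, adjusted p = 0.147). Of 20 glycolysis genes 2 rose and 1 fell (10% and 5%), near the 8.04% and 8.77% over all genes. Gckr, a regulatory protein of hepatic glucose use, rose (0.28 ± 0.05, adjusted p = 0.00361), as did Pklr, liver pyruvate kinase (0.27 ± 0.07, adjusted p = 0.0135), which lost its call without wild-type replicate 2. The glucose carrier Slc2a2 was not called (0.05 ± 0.03, adjusted p = 0.266). Targets of ChREBP, the factor that senses sugar phosphates, also parted: 4 of 12 rose and 2 fell. The rising count was 2 without wild-type replicate 2 and 1 without the 3 acinar-rich libraries. Mlxipl, which encodes ChREBP, rose (0.15 ± 0.04, adjusted p = 0.0193), although another Mlxipl probe sloped the other way (−0.05). Txnip, its widely used readout, fell (−0.40 ± 0.07, adjusted p = 0.00411), as did Acacb, acetyl-CoA carboxylase 2 (−0.41 ± 0.08, adjusted p = 0.00501).

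Enzymes that strip nitrogen from amino acids fell more often than they rose, and many were not called. Of 31 amino acid catabolism genes 11 fell and 4 rose (median slope −0.09), and of 11 urea cycle genes 5 fell and 2 rose (median −0.14). These counts without wild-type replicate 2 were 6 and 2 for amino acid catabolism and 2 and 2 for the urea cycle, and without the 3 acinar-rich libraries 0 members of either fell. Of the urea cycle 2 fell without hypoglycaemic KO replicate 1. Got1, cytosolic aspartate aminotransferase, read 6.62 to 8.57 (median 8.14) in the low pups and 4.67 to 7.80 (median 6.59) in the others. Its slope was −0.47 ± 0.10 (limma adjusted p = 0.00655) and −0.90 ± 0.16 with the group means removed (adjusted p = 0.0564). Oat, ornithine aminotransferase, had −0.44 ± 0.10 (adjusted p = 0.00977). Arg1, the arginase that releases urea, had −0.25 ± 0.05 (adjusted p = 0.00591), and Slc25a15, the mitochondrial ornithine carrier, −0.30 ± 0.06 (adjusted p = 0.0064). Cps1, the entry enzyme of the cycle, had −0.31 ± 0.08 (adjusted p = 0.0223), and lost its call without wild-type replicate 2 and without hypoglycaemic KO replicate 1. Against them Otc, the next enzyme of the cycle, rose (0.46 ± 0.09, adjusted p = 0.00537), as did Glud1, glutamate dehydrogenase (0.19 ± 0.03, adjusted p = 0.00273).

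Of 30 targets of ATF4, the factor of the amino acid and integrated stress response, 6 fell and 0 rose (median slope −0.05, and 0.03 with the group means removed), and 2 fell without the 3 acinar-rich libraries. Chac1, which degrades glutathione, is shown because it followed glucose most closely of these by rank and its promoter has an amino acid response element. Its 250 bases before the start, chr2:119350992-119351241 (GRCm38.p6, plus strand, RefSeq), hold TTGCATCA in capitals, 193 bases before the start.
Chac1 promoter: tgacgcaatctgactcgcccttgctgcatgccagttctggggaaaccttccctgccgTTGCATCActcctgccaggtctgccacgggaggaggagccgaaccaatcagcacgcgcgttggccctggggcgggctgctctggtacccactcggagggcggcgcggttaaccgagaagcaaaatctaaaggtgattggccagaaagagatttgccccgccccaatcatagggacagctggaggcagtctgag
On either strand 5 of 25 list promoters held these letters (Atf3, Chac1, Fgf21, Nupr1 and Vldlr), as did 0.881% of all promoters, 1.05% for falling and 0.606% for rising genes. Chac1 read −0.28, −0.64, −0.31, −2.19, −1.20, −0.82 and −2.10 in the low pups in order of glucose and −2.90 to −2.21 (median −2.50) in the others, with no overlap. The library that goes against its label, at 16 mg/dl, was the lowest of the 7. The slope was −0.39 ± 0.06 (limma adjusted p = 0.00273) with rho = −0.924 (adjusted permutation p = 0.00672), and −0.45 without that library (adjusted p = 0.000398). Trib3, a pseudokinase that restrains ATF4, also had no overlap (2.18 to 3.87 against 0.07 to 2.10) and a slope of −0.43 ± 0.07 (adjusted p = 0.00273). Sesn2, an amino acid sensor, had −0.15 ± 0.03 (adjusted p = 0.00668). Fgf21, a fasting hormone of the liver, was not called (0.54 ± 0.19, adjusted p = 0.0622), and its levels spread from −7.28 to −2.46 in the low pups.

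Of 24 immediate-early genes 10 fell and 1 rose (median slope −0.14), with 6 falling in the KO pups and 0 without the 3 acinar-rich libraries. Klf6, a zinc finger factor of injured liver, had no overlap between low and other pups (2.59 to 3.73 against 2.09 to 2.53; slope −0.18 ± 0.03, limma adjusted p = 0.00501). Ccn2, the connective tissue growth factor, had −0.35 ± 0.07 (adjusted p = 0.00591), and Zfp36, which degrades inflammatory mRNAs, −0.30 ± 0.06 (adjusted p = 0.00632). Egr1 moved the other way, with 0.41 ± 0.10 (adjusted p = 0.0182). Of 19 clock genes 6 fell and 1 rose (median −0.05), and 0 fell without the 3 acinar-rich libraries. Per1, a clock repressor that glucocorticoids and cAMP both induce, read 3.05 to 5.04 (median 4.38) and 2.08 to 3.47 (median 3.19), with a slope of −0.30 ± 0.08 (adjusted p = 0.0169). Another Per1 probe, well above background on 11 arrays, was nearly flat (−0.02). The Per1 promoter is shown for the E-box CACGTG, the element of the clock. The 250 bases before the start, chr11:69098699-69098948 (GRCm38.p6, plus strand, RefSeq), carry it in capitals, 166 bases before the start.
Per1 promoter: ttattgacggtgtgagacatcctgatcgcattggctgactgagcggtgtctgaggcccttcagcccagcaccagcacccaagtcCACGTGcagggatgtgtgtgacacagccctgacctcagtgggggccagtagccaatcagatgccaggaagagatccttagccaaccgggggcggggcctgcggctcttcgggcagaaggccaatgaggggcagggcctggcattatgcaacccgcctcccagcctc
The E-box reads alike on both strands. It was in 5 of 16 clock list promoters (Bhlhe41, Ciart, Cry1, Per1 and Tef), in 10.1% of all promoters, in 14.0% of those of falling and in 10.1% of those of rising genes. The other falling clock genes included Nr1d2 (−0.19 ± 0.04, adjusted p = 0.0102) and Rora (−0.17 ± 0.04, adjusted p = 0.00873), a further probe of which sloped up (0.12). Hlf, an output gene of the clock, rose (0.15 ± 0.04, adjusted p = 0.02), and lost its call without hypoglycaemic KO replicate 1 and without replicate 5.

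Several enzymes of drug and steroid metabolism were among the steepest rising genes chosen for naming. Of 37 cytochrome P450 and conjugating enzyme genes 18 rose and 3 fell (median slope 0.18, 0.15 in the KO pups, 0.43 in the wild types). In the KO pups alone 6 rose and 4 fell. Without wild-type replicate 2, 9 rose and 1 fell, 10 rose and 1 fell without hypoglycaemic KO replicate 5, and without the 3 acinar-rich libraries 5 rose. Cyp1a2, a P450 of the pericentral hepatocyte, with a probe at chr9:57528060-57528119 (mm9), read −5.66 to −2.10 (median −3.58) in the low pups and −1.91 to 0.25 (median −1.15) in the others, with no overlap. The lowest levels were at 9 and 14 mg/dl and the highest at 55, 65 and 72 mg/dl. Its slope was 0.80 ± 0.11 (limma adjusted p = 0.00192), 33.1-fold over the range, with r = 0.891 (permutation p = 3e-05), rho = 0.926 (permutation p = 1e-05, the smallest that 100000 permutations give) and r = 0.860 without the 2 farthest pups. It was 0.82 in the KO pups, 0.76 in the wild types, 0.63 within slide 1 and 1.16 within slide 2. Without the 3 acinar-rich libraries it was 0.91 (adjusted p = 0.0346). Gsta2, a glutathione transferase, also had no overlap (−2.35 to −1.06 against −0.83 to 0.84; slope 0.43 ± 0.05, adjusted p = 0.00172). Sult1c2, a sulphotransferase, had 0.71 ± 0.09 (adjusted p = 0.00172), and Aox3, an aldehyde oxidase, 0.68 ± 0.12 (adjusted p = 0.00423). The 3 falling members were Por, the reductase that feeds electrons to every microsomal P450 (−0.20 ± 0.05, adjusted p = 0.0122), Cyp3a11 (−0.13 ± 0.04, adjusted p = 0.0309) and Cyp3a25 (−0.13 ± 0.04, adjusted p = 0.0361). Both Cyp3a calls were lost without wild-type replicate 2 and without each of several KO libraries.

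**Figure D3:**
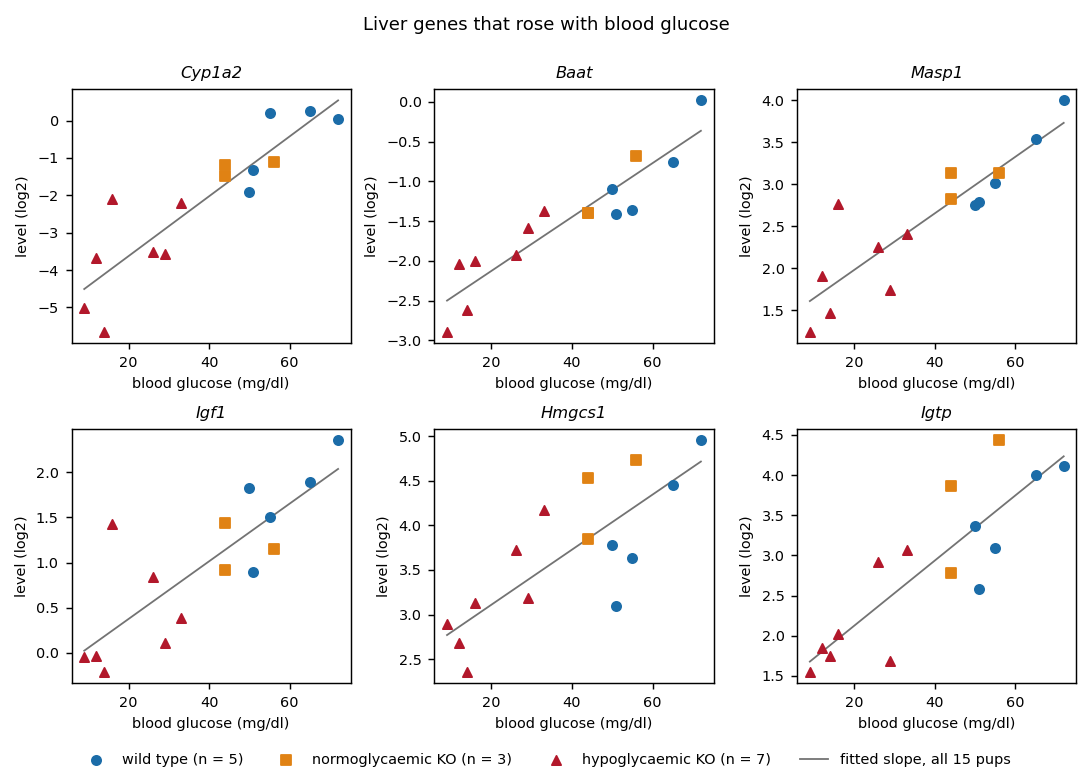
Levels (log2 over the array's 75th percentile, y axis) of Cyp1a2, Baat, Masp1, Igf1, Hmgcs1 and Igtp against blood glucose (mg/dl, x axis), 1 point per pup, with markers for the 3 groups and a line for the limma slope over all 15 pups. Levels climb from left to right in all 6 panels, and only in Cyp1a2 do the 7 pups at or below 33 mg/dl lie below all 8 others.

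The other steep rising genes were largely of hepatocyte metabolism. Cyp2d37-ps, listed as a P450 pseudogene, had a slope of 0.88 ± 0.15 (limma adjusted p = 0.00332), and its probe may also bind transcripts of close relatives. Hao1, which oxidises glycolate, had 0.74 ± 0.15 (adjusted p = 0.00625) and read −0.75 to 3.00 (median −0.14) in the low pups and 1.82 to 4.93 (median 3.59) in the others. Akr1c6 (0.86 ± 0.21, adjusted p = 0.0135) and Akr1c20 (0.85 ± 0.20, adjusted p = 0.0116), near relatives that encode hydroxysteroid dehydrogenases, and the methyltransferase Inmt (0.67 ± 0.17, adjusted p = 0.015) lost their calls without wild-type replicate 2, where Inmt read 4.43. Prok1, a secreted prokineticin (0.86 ± 0.19, adjusted p = 0.00888), and Ccl7, a monocyte chemokine (0.66 ± 0.15, adjusted p = 0.00932), were not of that kind. The Ccl7 slope was 0.99 in the KO pups but −0.51 in the wild types, a difference that was not called. By rank correlation Ccl7 was not called (adjusted permutation p = 0.0692), and it was well above background on 12 arrays. Pde9a, a cyclic GMP phosphodiesterase, came near to a strict order, with rho = 0.937 (adjusted permutation p = 0.00672). It had no overlap (−2.78 to −1.32 against −1.31 to −0.48) and a slope of 0.35 ± 0.04 (limma adjusted p = 0.00162).

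Of 21 bile acid genes 9 rose and 2 fell (median slope 0.06). In the KO pups 2 rose and 2 fell, 5 rose without wild-type replicate 2 or without hypoglycaemic KO replicate 1, and without the 3 acinar-rich libraries 3 rose. Baat joins bile acids to taurine and glycine and had the smallest p of the rising genes named here, with a probe at chr4:49502933-49502992 (mm9). It read −2.89, −2.04, −2.62, −2.00, −1.93, −1.59 and −1.37 in the low pups in order of glucose. It then read −1.40, −1.40, −1.10, −1.41, −1.36, −0.69, −0.76 and 0.02 up to 72 mg/dl. The level thus differed among the low pups themselves, lay between −1.41 and −1.10 from 33 to 55 mg/dl, and was highest above that. The slope was 0.34 ± 0.04 over all pups (limma adjusted p = 0.00162), 0.50 over the 7 hypoglycaemic KO pups, 0.56 over the wild types and 0.53 ± 0.08 with the group means removed (adjusted p = 0.0541). It was 0.31 without wild-type replicate 2 (adjusted p = 0.00696) and also 0.31 without the 3 acinar-rich libraries (adjusted p = 0.0274). Fgfr4, the receptor that curbs bile acid synthesis, had 0.18 ± 0.04 (adjusted p = 0.00613), and Akr1d1, which reduces bile acid precursors, 0.26 ± 0.06 (adjusted p = 0.0124). Cyp27a1, sterol 27-hydroxylase, fell (−0.28 ± 0.06, adjusted p = 0.00889).

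Of 34 coagulation and complement genes 20 rose (58.8%, the highest rising share of any list here) and 0 fell, with a median slope of 0.10. That count was 11 without wild-type replicate 2, 13 without hypoglycaemic KO replicate 1, 3 without the 3 acinar-rich libraries and 2 in the KO pups alone, while 28 of the 34 members sloped up in the wild types. Masp1, a protease that starts the lectin pathway of complement, read 1.24 to 2.77 (median 1.91) in the low pups and 2.75 to 4.00 (median 3.08) in the others. Only the library that goes against its label overlapped. The slope was 0.34 ± 0.05 (limma adjusted p = 0.00227), with rho = 0.894, and 0.38 without that library (adjusted p = 0.000239). Other Masp1 probes had slopes of 0.21 and 0.10. C8a, a part of the membrane attack complex, had 0.33 ± 0.05 (adjusted p = 0.00305), Serpind1, heparin cofactor II, 0.21 ± 0.04 (adjusted p = 0.00416), and C1s1, a protease of the classical pathway, 0.18 ± 0.03 (adjusted p = 0.00504). Other secreted products rose in part: 8 of 23 lipoprotein and lipase genes rose and 1 fell, with 4 rising in the KO pups and 1 without the 3 acinar-rich libraries. Apob, the protein core of VLDL, had 0.11 ± 0.02 (adjusted p = 0.00821). Of 18 acute-phase genes 2 rose and 1 fell (11.1% and 5.56%), near the 8.04% and 8.77% over all genes. The one that fell was Hamp, the iron hormone hepcidin (−0.40 ± 0.10, adjusted p = 0.0156), which lost its call without wild-type replicate 2. Of 23 endoplasmic reticulum genes 7 rose and 2 fell, with 3 rising in the KO pups and 1 without the 3 acinar-rich libraries. Xbp1, a factor of the secretory apparatus, had 0.10 ± 0.02 (adjusted p = 0.00361), and the folding enzymes Pdia4 and P4hb had 0.14 and 0.10. Herpud1 (−0.18) and Atf6 (−0.12) fell.

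Of 25 genes of cholesterol synthesis and targets of SREBP2 11 rose with glucose, 2 fell and 12 were not called (median slope 0.14). The median was 0.20 in the KO pups, where 12 rose and 1 fell, 0.33 in the wild types, where 23 of 25 sloped up, and 0.25 with the group means removed. Without wild-type replicate 2, 8 rose and 2 fell, and without the 3 acinar-rich libraries 1 rose and 2 fell. Hmgcs1, which makes the precursor of mevalonate, read 2.36 to 4.17 (median 3.13) in the low pups and 3.10 to 4.95 (median 4.15) in the others. The 3 highest livers were those of the KO pup at 56 mg/dl, the wild type at 72 mg/dl and the KO replicate 3 at 44 mg/dl. Its slope was 0.31 ± 0.06 (limma adjusted p = 0.00605) over all pups and 0.59 ± 0.11 with the group means removed (adjusted p = 0.0564). It was 0.24 without the 3 acinar-rich libraries (adjusted p = 0.105). The promoter is shown because it was the only one of 17 list sequences with the sterol element TCACNCCAC. The 250 bases before the start, chr13:119690101-119690350 (GRCm38.p6, plus strand, RefSeq), hold it in capitals, 137 bases before the start.
Hmgcs1 promoter: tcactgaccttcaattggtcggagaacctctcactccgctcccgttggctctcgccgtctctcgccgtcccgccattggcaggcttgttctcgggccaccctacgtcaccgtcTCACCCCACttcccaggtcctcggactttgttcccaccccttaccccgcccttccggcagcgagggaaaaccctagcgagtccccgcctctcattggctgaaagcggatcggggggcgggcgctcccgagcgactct
On either strand 1.43% of all promoters held these letters, with 1.41% for rising and 1.54% for falling genes. Sc5d (0.16 ± 0.03, adjusted p = 0.00332) and Dhcr7 (0.14 ± 0.03, adjusted p = 0.00714), late enzymes of the path, also rose. Sqle, squalene epoxidase, and Cyp51, lanosterol demethylase, had steep slopes with the group means removed (0.70 ± 0.11 and 0.73 ± 0.12, adjusted p = 0.0557 for both). Over all pups both lost their calls without wild-type replicate 2. Lss, lanosterol synthase (−0.24 ± 0.05, adjusted p = 0.00531), and Hsd17b7 (−0.15 ± 0.03, adjusted p = 0.00371), enzymes of the same path, fell.

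Of 18 lipogenesis genes 6 rose and 2 fell (median slope 0.08), and 1 rose without the 3 acinar-rich libraries. The desaturases Fads2 (0.36 ± 0.06, limma adjusted p = 0.00399) and Fads1 (0.24 ± 0.05, adjusted p = 0.00591) rose, as did the insulin-driven factor Srebf1 (0.22 ± 0.05, adjusted p = 0.00746). Fasn, fatty acid synthase, was not called (0.11 ± 0.04, adjusted p = 0.0885). Gpam, the first enzyme of triglyceride assembly, fell, with no overlap (0.13 to 0.52 against −1.08 to −0.16; slope −0.20 ± 0.03, adjusted p = 0.00172). Of 33 fatty acid oxidation genes 7 rose and 3 fell (21.2% and 9.09%, beside 8.04% and 8.77% over all genes). In the KO pups 0 rose and 3 fell. The rising count was 4 without wild-type replicate 2 and 3 without hypoglycaemic KO replicate 1 or replicate 5, while 0 rose and 1 fell without the 3 acinar-rich libraries. Cpt1a, the gate of mitochondrial fat burning, was not called (−0.01 ± 0.03, adjusted p = 0.837). Mlycd, malonyl-CoA decarboxylase, fell (−0.13 ± 0.03, adjusted p = 0.00786).

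Of 20 genes of the growth hormone, IGF and insulin axis 9 rose and 3 fell (median slope 0.07, and −0.01 with the group means removed). In the KO pups alone 3 rose and 4 fell. Leaving out wild-type replicate 2 or hypoglycaemic KO replicate 5, 5 rose and 1 fell, 4 rose and 1 fell without hypoglycaemic KO replicate 1, and without the 3 acinar-rich libraries 1 rose. Igf1, the growth factor of this axis, read −0.21 to 1.43 (median 0.11) in the low pups and 0.90 to 2.35 (median 1.47) in the others. The library that goes against its label was the highest of the 7 low ones. The slope was 0.32 ± 0.06 (limma adjusted p = 0.00479), 0.24 in the KO pups (adjusted p = 0.158), 0.43 in the wild types, and 0.37 without that library (adjusted p = 0.000756). Other Igf1 probes had slopes of 0.07 to 0.38. Ghr, the growth hormone receptor, had 0.18 ± 0.03 (adjusted p = 0.00358), and Igfals, which holds IGF in the circulation, 0.25 ± 0.05 (adjusted p = 0.00591). Igfbp3, its partner in that complex, fell (−0.18 ± 0.04, adjusted p = 0.0089). The insulin receptor Insr was not called (−0.01 ± 0.03, adjusted p = 0.887).

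Of 30 interferon and antigen presentation genes 13 rose and 0 fell, with a median slope of 0.11. The median was 0.21 in the KO pups, where 10 rose, 0.17 in the wild types, where 27 of 30 sloped up, and 0.25 with the group means removed. Without wild-type replicate 2, 10 rose, and without the 3 acinar-rich libraries 2 did. Igtp, an interferon-induced GTPase, read 1.55 to 3.06 (median 1.85) in the low pups and 2.58 to 4.43 (median 3.61) in the others, with the highest level at 56 mg/dl. Its slope was 0.41 ± 0.06 (limma adjusted p = 0.00275), and 0.37 without the 3 acinar-rich libraries (adjusted p = 0.0448). The promoter is shown as one of 14 among 26 from this list with the interferon core GAAANNGAA. The 250 bases before the start, chr11:58199306-58199555 (GRCm38.p6, plus strand, RefSeq), carry it in capitals, 34 bases before the start.
Igtp promoter: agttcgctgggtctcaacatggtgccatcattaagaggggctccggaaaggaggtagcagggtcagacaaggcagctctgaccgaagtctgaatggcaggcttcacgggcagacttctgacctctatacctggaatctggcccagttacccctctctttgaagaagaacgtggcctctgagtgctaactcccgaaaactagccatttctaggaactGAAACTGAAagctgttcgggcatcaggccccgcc
On either strand 8.96% of all promoters held these letters, with 9.69% for rising and 9.11% for falling genes. Irf1, a factor that drives such genes, had no overlap (1.86 to 2.53 against 2.55 to 3.22; slope 0.20 ± 0.03, adjusted p = 0.00273). Iigp1, another GTPase of the family, had 0.50 ± 0.08 (adjusted p = 0.0036). Some lymphoid markers also rose: of 17 natural killer and T cell genes 6 rose and 0 fell. That count was 3 without wild-type replicate 2, 2 without the 3 acinar-rich libraries and 0 in the KO pups. Their mean level was −2.25 to −1.46 in the hypoglycaemic KO, −1.68 to −1.43 in the normoglycaemic KO and −1.31 to −1.02 in the wild-type libraries. Xcl1 (0.61 ± 0.11, adjusted p = 0.00388) and Gzmb (0.25 ± 0.04, adjusted p = 0.00281) led them. The lymphoid list had a median slope of −0.05 with the group means removed, beside 0.25 for the interferon list. Whether lymphoid cells had a part in the interferon slopes was not tested.

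Of 31 cell cycle and replication genes 10 rose, 0 fell and 21 were not called over all pups, and 10 rose in the KO pups. All 31 sloped up in the wild types and all 31 with the group means removed, where the median slope was 0.22 against 0.08 over all pups. The pancreatic acinar genes, none of them called, sloped the same way there: 19 of 19 in the wild types (median 1.64) and 18 of 19 with the group means removed (median 0.53). Their part in the slopes of other genes was not tested. Limma without wild-type replicate 2 called 1 cell cycle gene, without hypoglycaemic KO replicate 1 it called 6, without replicate 5 of that group 5, and without the 3 acinar-rich libraries 0. Mcm6, a subunit of the replicative helicase, read 4.43 to 5.59 (median 4.87) in the low pups and 4.79 to 5.93 (median 5.49) in the others, a wide overlap. Its slope was 0.17 ± 0.04 (limma adjusted p = 0.0131) and 0.36 ± 0.08 with the group means removed (adjusted p = 0.0607). Rfc3, which loads the replication clamp, was not called over all pups (0.14 ± 0.05, adjusted p = 0.0505) but was among the steepest with the group means removed (0.42 ± 0.07, adjusted p = 0.0557).

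Of 17 Tbx3 and pericentral genes 7 rose, 2 fell and 8 were not called (median slope 0.12, and 0.01 with the group means removed). In the KO pups 3 rose and 2 fell, and without the 3 acinar-rich libraries 4 rose. Tbx3 itself, a factor of the pericentral hepatocyte, had no overlap between low and other pups (0.17 to 0.93 against 1.13 to 1.71). Its slope was 0.24 ± 0.04 (limma adjusted p = 0.00305), but 0.02 ± 0.07 with the group means removed and −0.20 in the wild types. Lect2, a secreted pericentral product, had no overlap either (0.53 to 3.30 against 3.38 to 5.50; slope 0.51 ± 0.10, adjusted p = 0.00537). The difference between the fits was not tested.

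With the group means removed no gene was called, but the leading ones are given as a description. Among those rising were Baat, Rfc3, Sqle and Cyp51, above, and Pold2, a subunit of DNA polymerase delta (0.31 ± 0.05, adjusted p = 0.0557), Snrpd1, a core splicing protein (0.24 ± 0.04, adjusted p = 0.0557), Pdxp, a pyridoxal phosphatase (0.39 ± 0.07, adjusted p = 0.0557), and Psmc3ip (0.53 ± 0.09, adjusted p = 0.0557). Among those falling were Rora, a nuclear receptor of clock and lipid genes (−0.33 ± 0.05, adjusted p = 0.0541), Krt23, a keratin (−0.54 ± 0.08, adjusted p = 0.0541), and the ubiquitin ligase Rnf125 (−0.52 ± 0.08, adjusted p = 0.0541). Adra2a, Rmnd5a (−0.28), Aff4 (−0.30), Mlycd (−0.24) and Clec1b (−0.20) followed.

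**Figure D4:**
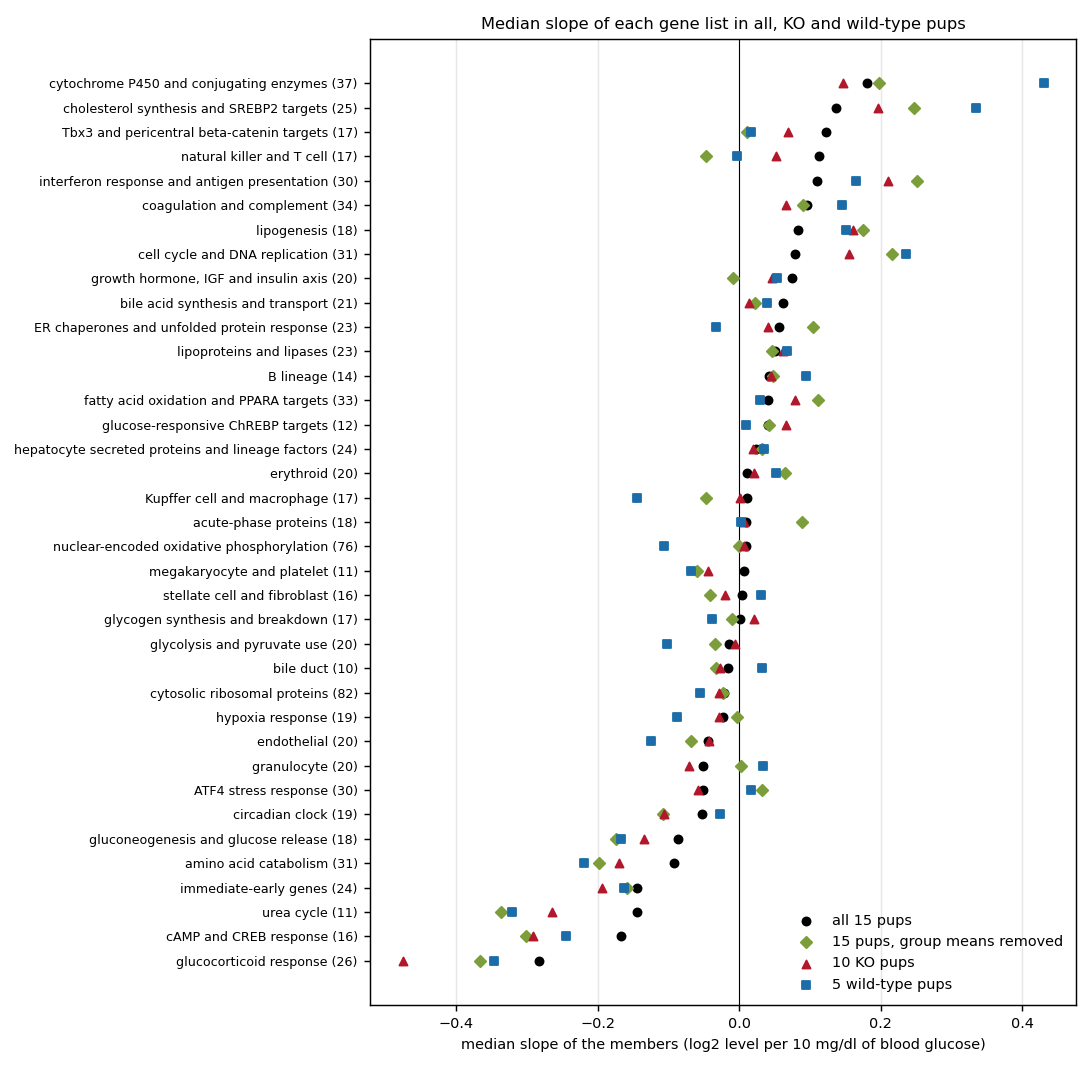
Median slope (log2 per 10 mg/dl, x axis) of each gene list (y axis), with 1 marker each for all 15 pups, the 10 KO pups, the 5 wild types and the fit with the group means removed; the pancreatic acinar list is left out (medians 0.17 over all pups, 0.32 in the KO pups, 1.64 in the wild types and 0.53 with the group means removed). Of the lists drawn, the glucocorticoid list lies farthest to the left over all pups, at −0.28, and the P450 list farthest to the right, at 0.18.

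In many lists few genes were called. Over all genes 8.04% rose and 8.77% fell, and most of the shares in these lists were near or under that. The falling share was higher in the hypoxia (15.8%), macrophage (17.6%), bile duct (20%) and endothelial (30%) lists. Of 76 genes of oxidative phosphorylation 3 rose and 0 fell, with 49 sloping up over all pups (median 0.01) but 72 sloping down in the wild types (median −0.11). Of 82 ribosomal protein genes 0 rose and 2 fell, with 79 sloping down over all pups (median −0.02) and 76 in the wild types (median −0.05). Of 24 hepatocyte proteins and lineage factors 3 rose and 3 fell: Ttr, the thyroxine carrier, rose (0.21 ± 0.04, limma adjusted p = 0.00462), while Hnf4a, a factor of hepatocyte identity, fell (−0.13 ± 0.03, adjusted p = 0.0065). Alb (0.02 ± 0.02) and Afp (0.02 ± 0.01) were not called. Of 19 hypoxia genes 1 rose and 3 fell. Among markers of other cells, 2 of 20 erythroid genes rose, 2 of 20 granulocyte genes fell, 1 of 11 platelet genes fell, and 2 of 17 macrophage genes rose and 3 fell. Of 16 stellate genes 2 rose and 1 fell, of 14 B lineage genes 1 rose, of 10 bile duct genes 1 rose and 2 fell, and of 19 pancreatic acinar genes 0 were called. Of 20 endothelial genes 6 fell, 2 without wild-type replicate 2, 3 without hypoglycaemic KO replicate 1, 2 in the KO pups and 1 without the 3 acinar-rich libraries. Among them was Lyve1 of the sinusoid (−0.23 ± 0.04, adjusted p = 0.00437), and the list had mean levels of 1.65 to 1.88, 1.57 to 1.71 and 1.48 to 1.82 in hypoglycaemic KO, normoglycaemic KO and wild-type libraries. Lrat, the retinol-storing enzyme of stellate cells, rose (0.31 ± 0.04, adjusted p = 0.00172). The plot of shares sets all lists beside the shares over all genes.

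**Figure D5:**
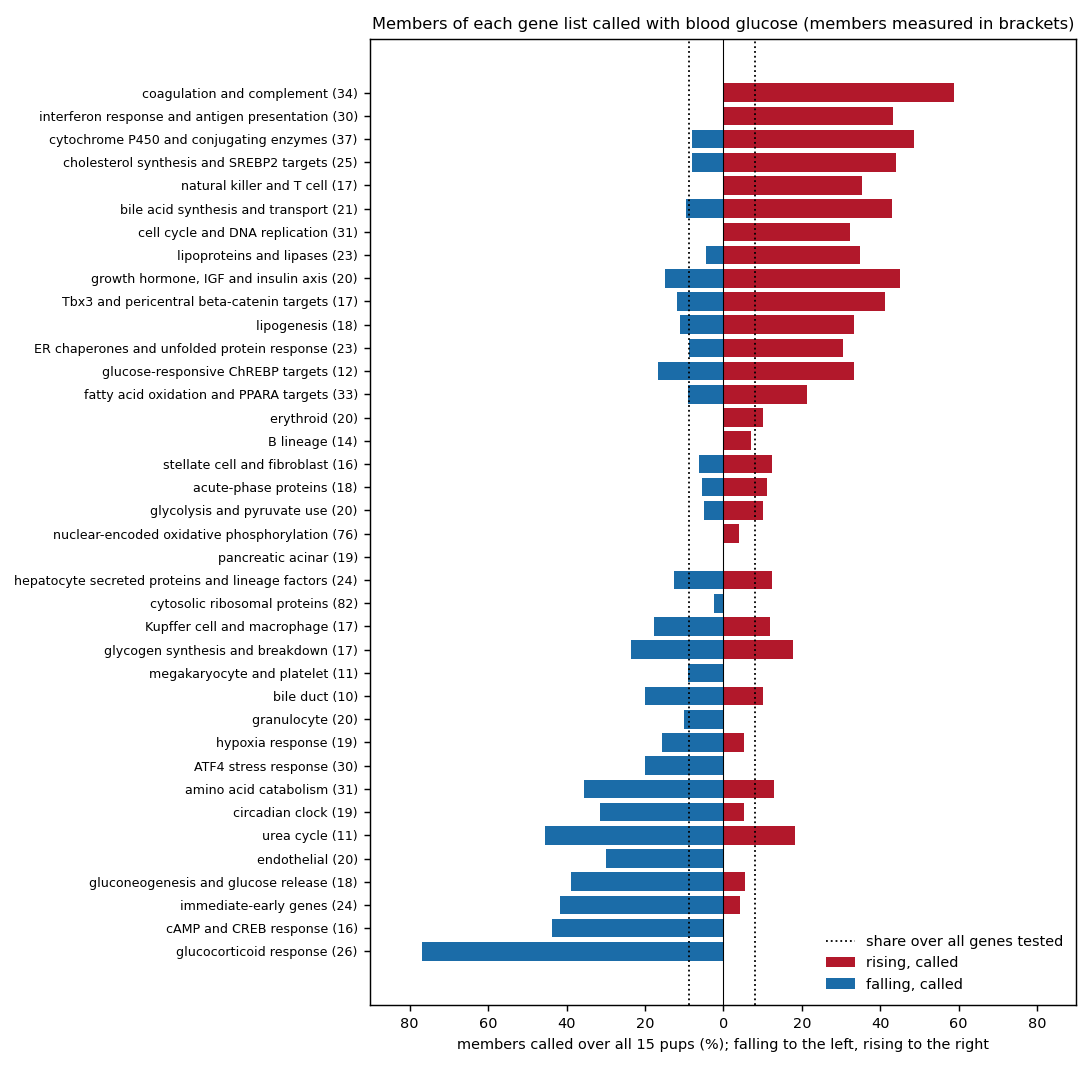
Percent of the measured members of each list (y axis) called rising (bars to the right) or falling (bars to the left) over all 15 pups at a limma adjusted p under 0.05; dotted lines mark the shares over all genes, 8.04% and 8.77%. The coagulation and complement list reaches 58.8% rising and the glucocorticoid list 76.9% falling. The lists were chosen with earlier results of these data known.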

How the data were processed

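Per the labels' protocols, RNA of snap-frozen liver was labelled with Cy3 and hybridised to Agilent arrays. Per the file headers, Agilent's Feature Extraction (10.10) produced the deposited intensity values, which are background-subtracted within each array and unscaled across arrays. The authors' log2 value table comes from limma per the submitters' processing notes, its version not given in the sources used here, and served as an alternative.

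Levels are log2 gProcessedSignal minus the 75th percentile of that array's spots other than controls. Of 62976 spots per array 3671 controls were left out, outlier spots were set to missing, and 55681 probes remained. The 41153 probes well above background on at least 3 arrays were kept, and the brightest probe stood for each gene, giving 27554 genes; 65 of the 4631 called genes lacked a value on some array. The number of arrays limits the precision.

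Slopes on glucose came from lmFit and eBayes (R 4.3.3, limma 3.58.1), with Benjamini-Hochberg adjustment over all genes at 0.05, and SE from the fit. The fit with group means removed has 3 group means and 1 slope. Rank correlations used 10000000 shuffles of glucose in the main setting and 1000000 in the alternatives, with the tie at 44 mg/dl kept. Genes with a missing value had 100000 shuffles, as did single relations. All were 2-sided. The rest ran in Python 3.11.15 (pandas 2.3.3, scipy 1.17.1, numpy 2.4.6, matplotlib 3.10.9). The fits were tested on simulated data. Pups are separate animals, and the main fits do not pair same-numbered replicates. Same-number correlations of deviations from group means ran from −0.17 to 0.32 (median 0.12), and 6 of 11 exceeded 0.1. Whether same-numbered replicates belong together was not tested.

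Genes named were up to 10 per direction by slope, 5 by rho and 8 by p with group means removed (well above background on at least 12 arrays), up to 4 called members per list and direction, and a set named whatever their result. Members and the 38 lists were chosen with earlier results of these data known. Of the called named genes, 50 had another kept probe, and 62 of 65 such probes had the same sign; those of the other sign include 1 each of Mlxipl and Rora. Some genes are not reported here. Probe coordinates are mm9; promoters are RefSeq's on GRCm38.p6, where 14300 tested genes had one. Alternatives are in the closing section.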

Additional observations from a re-analysis of the deposited data

Results flagged for a closer look

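Within the 5 wild-type or the 7 hypoglycaemic KO libraries, 484 sets of levels of named genes and list means were checked for 1 value far from the rest. By chance about 1 in 20 would be picked out, or 24.2, and 34 were: 21 genes and 13 lists, 11 of them at wild-type replicate 2, the pup with the highest glucose and one rich in acinar transcripts. At that library stood Fasn (−1.77), G6pc (6.03), Gsta2 (0.84), Mlycd (4.54), Per1 (2.84), Pklr (−0.83), Prlr (0.93) and Sesn2 (0.92), and the means of the gluconeogenesis (3.71), glycolysis (4.24) and ribosomal protein lists (7.13). At wild-type replicate 1 stood Cebpa (1.70), Fads2 (1.60), Hamp (6.73), Pdgfra (0.55) and Pdia4 (0.80), and the means of the Tbx3 and pericentral (1.19) and bile duct lists (−1.10). At wild-type replicate 5 it was the lipoprotein list (5.26).

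Among the hypoglycaemic KO libraries, replicate 5 (14 mg/dl) stood apart in Bnip3 (7.02), Igfbp4 (2.12), Kdm3a (2.92), Klf6 (3.73), Ndufv3 (5.41) and Oit3 (3.62), and in the means of the hypoxia (1.67) and clock lists (0.36). The library labelled replicate 2, which goes against its label in Mirg, stood apart in Cd3g (−2.60) and Prlr (0.17), and in the growth hormone and IGF (2.37) and natural killer and T cell lists (−1.46). Replicate 7 stood apart in the glycolysis (4.55) and acute-phase lists (4.33), and replicate 4 in the cholesterol list (1.91).

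The test of the difference between the KO and the wild-type slope, by limma, called a single transcript, ENSMUST00000067831. Its slope was 0.01 in the KO pups and 4.27 in the wild types, a difference of −4.26 (adjusted p = 0.00382). It was well above background on 3 arrays and had no value on 2.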

How the results depend on the processing

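Limma counts over all pups (2215 rising, 2416 falling) kept within 1.5 times under normexp, quantile scaling, the 75th percentile over detected probes, the authors' log2 values, no filter or a strict filter on dim probes, slide or slide row as a block, log2 or rank of glucose, and a Ddx3y term. They were 1202 and 1308 in the KO pups only, 323 and 265 without the 3 acinar-rich libraries, and 0 and 0 within slide 1, within slide 2, in the hypoglycaemic KO pups only and in the wild types only; the KO, slide and other subsets have fewer samples. The rank correlation's 3298 genes became 775 in the KO pups, 4 without the acinar-rich libraries, and 0 within slide 1, within slide 2 and in the hypoglycaemic KO pups. Leaving out each library gave 1225 to 2533 rising, 1234 to 2936 falling and 832 to 4853 by rank. The rising and falling counts moved by over 1.5 times without wild-type replicate 2 (1314 and 1234) and hypoglycaemic KO replicates 1 (1225 and 1303) and 5 (1276 and 1510). The lowest by rank was without wild-type replicate 2, and the count was 865 without hypoglycaemic KO replicate 1, 1095 without replicate 5 and 1922 without replicate 3 of that group, 2042 without normoglycaemic KO replicate 2 and 2081 without wild-type replicate 5.

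With group means removed the 0 calls became 341 with normexp, 290 with the authors' log2 values, 526 with the strict filter, 50 with the Ddx3y term, 21 with quantile scaling, 17 with the percentile over detected probes, 4 with slide as a block, 1 within slide 1, 1 without the library labelled hypoglycaemic KO replicate 2 and with the slide block, and 0 to 981 with each library left out (981 without hypoglycaemic KO replicate 7, 47 without replicate 1, 12 without replicate 3 and 1 without replicate 2 of that group). The cause was not tested. With a replicate block, 1568 genes rose and 1494 fell, beside 2215 and 2416 in the main fit. In that setting 1 gene was called with group means removed. Whether same-numbered replicates belong together was not tested. No named gene reversed a call, in the settings run for single genes, which leave out those added later. The hypoglycaemic KO only, wild type only and combined slide settings were added after the data were seen.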

Other observations

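Several genes outside the liver functions described above came near to a strict order by glucose. Rabggtb, the catalytic subunit of the enzyme that prenylates Rab proteins, had rho = −0.945 over the 15 pups (adjusted permutation p = 0.00672) with a small slope of −0.13 ± 0.02 (limma adjusted p = 0.00172). It read 2.12 to 2.57 in the 7 pups at or below 33 mg/dl and 1.68 to 2.06 in the 8 at or above 44 mg/dl, with no overlap. Marchf7, a ubiquitin ligase, had rho = −0.922 and no overlap (2.53 to 2.92 against 2.13 to 2.50; slope −0.10 ± 0.02, limma adjusted p = 0.00281). Elf2, an ETS transcription factor, had rho = −0.924 and a slope of −0.06 ± 0.01 (limma adjusted p = 0.00847). Gcat, which splits a breakdown product of threonine into glycine and acetyl-CoA, had rho = 0.922 and a slope of 0.15 ± 0.03 (limma adjusted p = 0.00408). Ndufv3, a subunit of respiratory complex I, had rho = 0.931, a slope of 0.08 ± 0.02 (limma adjusted p = 0.0076) and groups that met without overlapping (5.41 to 5.89 against 5.89 to 6.18). Other Ndufv3 probes, well above background on all 15 arrays, had slopes of 0.05 and 0.01. All 5 genes sloped the same way in the KO pups and in the wild types.

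The library labelled hypoglycaemic KO replicate 2, in which Mirg read 0.66, nearer to the wild types than to the other KO libraries, had a glucose of 16 mg/dl. The genes that follow were picked after their values were seen. Its Cyp1a2 level (−2.10) was the highest of the 7 low pups, as were its Masp1 (2.77) and Igf1 (1.43) levels, and its Chac1 level (−2.19) was the lowest. Its Ddit4 (5.71) and Adra2a (2.78) levels lay within those of the other low pups.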
